A study of Mus musculus with 16 samples.

Results

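The chemokines and their receptors were followed in endothelial cells sorted from the liver and the lung of adult mice. They were taken as every row of the liver and lung count tables whose gene symbol begins with Ccl, Cxcl, Cx3cl, Xcl, Ccr, Cxcr, Cx3cr, Xcr or Ackr followed by a digit. This gave 62 of 37991 gene entries, under 61 symbols, since Ccl25 is listed under 2 entries. Of these, 42 were ligands and 20 were receptors. The tables use older symbols for the atypical receptors, so that of this class the scavenger receptor Ackr3 entered under its former name Cxcr7, while Ackr1 (Darc), Ackr2 (Ccbp2) and Ackr4 (Ccrl1) are given beside the members.

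The 16 RNA-seq libraries formed 4 groups of 4. The liver GOF and lung GOF groups came from mice of genotype Rosa-Bcat-GOF/+; VE-Cadherin-CreERT2, in which an inducible Cre driven by the VE-cadherin promoter switches on activated beta-catenin, the effector of canonical Wnt signalling, in endothelial cells. The liver control and lung control groups were Rosa-Bcat-GOF/+, so that all mice carried the activatable allele, and effects of the Cre transgene and of activated beta-catenin cannot be told apart. Cells were freed by trituration and sorted by a fluorescent antibody to CD31, an adhesion molecule of endothelium that some blood cells also carry. The libraries are named by the letters of the labels, B, E, F and G in liver and B, E, F and D in lung.

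Chemokines are small secreted or membrane-tethered proteins that bind heparan sulfate on the endothelial surface and G-protein-coupled receptors on leukocytes, and so direct where leukocytes stop and leave the blood. CXC ligands such as Cxcl1 and Cxcl2 attract neutrophils through Cxcr2, the interferon-inducible ligands Cxcl9, Cxcl10 and Cxcl11 attract activated T cells through Cxcr3, and Ccl2 attracts monocytes through Ccr2. Cxcl12 retains and guides cells through Cxcr4, and Cxcr7 binds and internalises Cxcl12 and Cxcl11 without coupling to G proteins.

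The promoter windows of Cxcl1, Cxcl2, Cxcl9 and Cxcl10 are shown first. Cxcl1 and Cxcl2 were the ligands called as higher in liver GOF, and only when libraries were paired by letter. Cxcl9 and Cxcl10 were abundant in liver and called as lower in lung in both genotypes. Each window runs from 250 bases before to 50 bases after the gene start and comes from RefSeq on GRCm38.p6, on chromosome 5. Cxcl1 lies at chr5:90890995-90891294 (plus strand), Cxcl2 at chr5:90903649-90903948 (plus strand), Cxcl10 at chr5:92348840-92349139 (minus strand) and Cxcl9 at chr5:92328030-92328329 (minus strand). Capitals mark matches on either strand to an NF-kB motif, searched as GGG, any 2 bases, TT, any base and CC, and to the interferon-stimulated response element, searched as GAAA, any 2 bases and GAAA.
Cxcl1: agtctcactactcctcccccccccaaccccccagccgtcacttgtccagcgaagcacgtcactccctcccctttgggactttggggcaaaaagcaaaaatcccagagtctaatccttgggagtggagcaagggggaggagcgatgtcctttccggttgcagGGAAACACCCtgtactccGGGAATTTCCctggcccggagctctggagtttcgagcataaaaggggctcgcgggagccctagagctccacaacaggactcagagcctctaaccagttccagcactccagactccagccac
Cxcl2: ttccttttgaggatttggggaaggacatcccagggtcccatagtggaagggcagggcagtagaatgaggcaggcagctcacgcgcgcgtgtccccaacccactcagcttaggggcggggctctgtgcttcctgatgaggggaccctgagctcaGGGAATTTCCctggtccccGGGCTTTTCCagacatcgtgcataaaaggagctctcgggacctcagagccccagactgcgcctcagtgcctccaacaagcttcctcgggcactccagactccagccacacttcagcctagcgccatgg
Cxcl10: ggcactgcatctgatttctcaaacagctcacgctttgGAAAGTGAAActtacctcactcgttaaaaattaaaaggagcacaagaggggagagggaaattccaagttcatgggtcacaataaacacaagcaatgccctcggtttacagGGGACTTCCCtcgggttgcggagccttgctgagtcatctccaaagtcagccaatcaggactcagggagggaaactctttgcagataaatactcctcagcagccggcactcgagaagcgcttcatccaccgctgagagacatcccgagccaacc
Cxcl9: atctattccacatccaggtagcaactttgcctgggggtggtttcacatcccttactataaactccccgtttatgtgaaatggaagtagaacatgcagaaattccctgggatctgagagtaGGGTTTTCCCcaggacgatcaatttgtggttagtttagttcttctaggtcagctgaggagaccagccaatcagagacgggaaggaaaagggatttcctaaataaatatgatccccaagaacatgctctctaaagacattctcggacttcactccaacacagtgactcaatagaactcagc

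The Cxcl1 and Cxcl2 windows each held 2 NF-kB matches, in Cxcl1 starting 89 and 71 bases and in Cxcl2 starting 97 and 78 bases before the gene start. The Cxcl10 window held 1 interferon-stimulated response element and 1 NF-kB match, and the Cxcl9 window held 1 NF-kB match and no match to the response element as spelled here. Of 43 members with a window, 10 held the NF-kB motif (23.3%) and 3 the interferon-stimulated response element (6.98%), against 4.79% and 3.44% of all 32851 windows in the table. A member with several windows was counted if any of them matched, while the 32851 are counted window by window. The shares are therefore not strictly alike. The TCF/LEF motif CTTTGA, the core bound by the partners of beta-catenin, was in none of the windows printed here. It was in 10 of the 43 members with a window (23.3%), among them Cxcl12 and Cxcl15, and in 16% of all windows. Cxcl3, Cxcl15, Cxcl1 and Cxcl2 lie next to each other on chromosome 5 with no other protein-coding gene between them, as do Cxcl10 and Cxcl11. The RefSeq annotation used here lists Cxcl11 as a transcribed pseudogene, and it was kept as a member. Matches describe letters in these windows and say nothing of binding.

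The libraries held 22815467 to 37127150 reads assigned to genes. Ctnnb1, the gene of beta-catenin itself, ranged over 635 to 943 CPM (reads of a gene scaled to a common library total) in liver GOF and 664 to 980 CPM in liver control. In lung it ranged over 591 to 741 CPM in lung GOF and 618 to 690 CPM in lung control. Its total level did not separate the genotypes. Axin2, a feedback target of beta-catenin, lay at 22.1 to 79.9 CPM in liver GOF against 6.22 to 14.7 CPM in liver control. In lung it lay at 18.9 to 29.8 CPM in lung GOF against 9.15 to 16.7 CPM in lung control, with no overlap of the groups in either tissue. All 12 endothelial markers had reads in every group and summed to 12579 to 19490 CPM per library. Libraries of the same letter deviated together within a tissue, so GOF and control were compared both without and with pairing by letter. In sorted populations, fewer cells of a type and less RNA per cell cannot be told apart.

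Of the 62 entries, 55 had at least 1 read and 7 had none in any library, namely Ccl1, Ccr8, the second entry of Ccl25, Ccl26, Ccl27b, Ccl28 and Ccl19-ps3. Per kilobase of exon, which allows levels of different genes to be compared, Cxcl10 led in liver, with 918 ± 471 CPM per kb in liver GOF and 778 ± 409 CPM per kb in liver control (SD, n = 4 each). It was followed by Cxcl1 (149 ± 34.1 CPM per kb in liver GOF and 113 ± 22.3 in liver control), Cxcl9 (138 ± 79.0 and 111 ± 62.1) and Ccl2 (83.5 ± 43.0 and 82.7 ± 40.8), 3 neighbours in this order whose spreads overlapped. In lung the highest were Cxcr7 (198 ± 34.6 CPM per kb in lung GOF and 247 ± 55.1 in lung control) and Cxcl15 (202 ± 106 and 155 ± 111), which did not differ beyond their spread. Next came Cxcl1 (122 ± 81.0 and 81.3 ± 28.6), Cx3cl1 (78.9 ± 21.4 and 74.7 ± 8.91), Ccl2 (42.7 ± 33.0 and 22.9 ± 2.02), Cxcl16 (37.8 ± 6.66 and 40.1 ± 6.14) and Cxcl12 (33.6 ± 12.5 and 37.9 ± 15.2). Ccl2, Cxcl16 and Cxcl12 overlapped in lung GOF, and in lung control the mean of Ccl2 was the lowest of these.

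**Figure D1:**
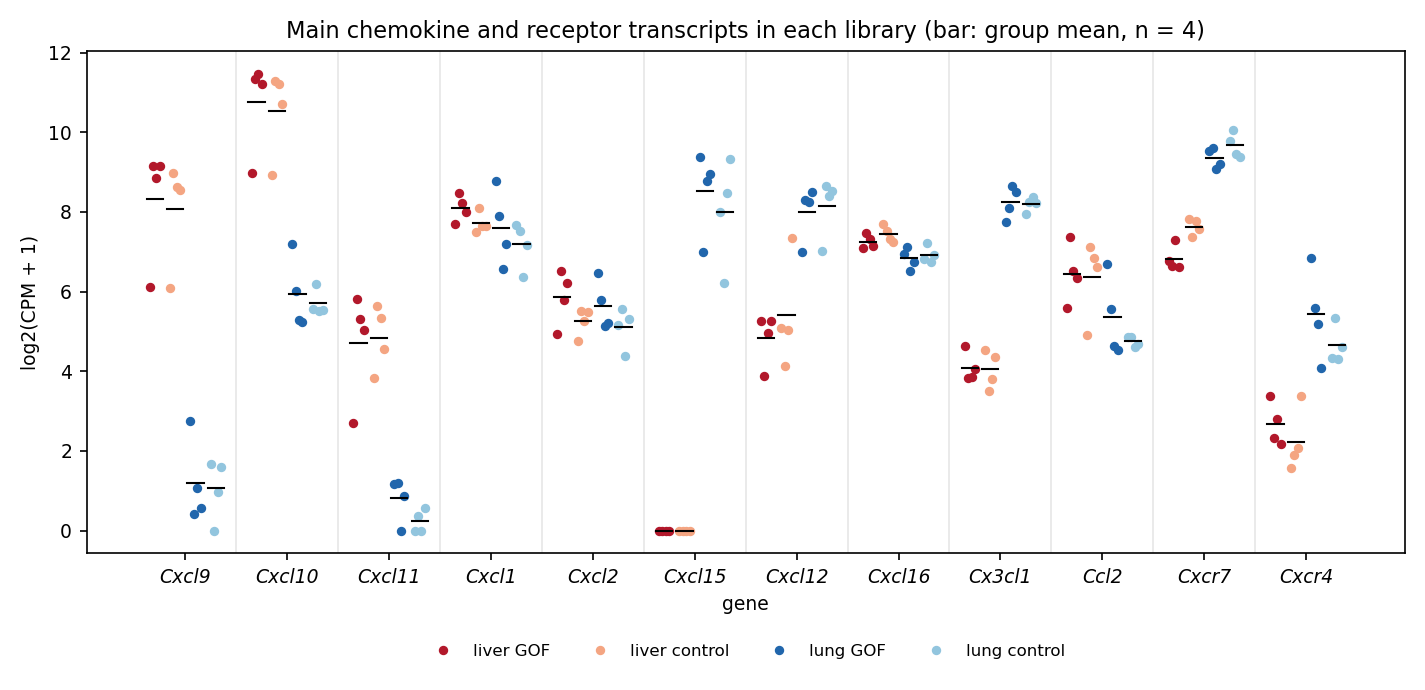
Each point is 1 library and each bar a group mean of 4, on a scale of log2(CPM + 1), for 12 members in liver GOF, liver control, lung GOF and lung control. Cxcl9, Cxcl10 and Cxcl11 stand far higher in the liver libraries, Cxcl12, Cx3cl1, Cxcr7 and Cxcr4 higher in the lung libraries, and Cxcl15 is at 0 in all liver libraries.

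In liver, the atypical receptor Cxcr7 was lower in GOF and the neutrophil attractants Cxcl1 and Cxcl2 were higher, each in 4 of 4 letter pairs. In the paired edgeR fit these 3 of 30 members tested passed an adjusted p of 0.05, 2 higher and 1 lower. Across all 15555 genes 2.58% passed in that fit, 1.54% higher and 1.04% lower. Without pairing, edgeR called 0 of the 30 members and 0.0321% of all genes. Of the members, 1 had an unadjusted p under 0.05, and DESeq2 called 1, in both cases Cxcr7. In unpaired edgeR 1010 of all 15555 genes had an unadjusted p under 0.05. Over all 15555 genes the unpaired DESeq2 fit called 99 as higher and 51 as lower.

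Cxcr7 measured 108, 99.4, 155 and 96.6 CPM in the liver GOF libraries B, E, F and G, and 224, 164, 215 and 187 CPM in the liver control libraries of the same letters. All GOF libraries lay below all control libraries, and within a letter the GOF level was 0.483 to 0.719 times that of control. Cxcr7 fell by 0.79 ± 0.108 on the log2 scale in the paired fit (SE; adjusted p = 0.00308) and by 0.77 ± 0.174 without pairing (adjusted p = 0.232). The paired call held under all 7 alternatives of that fit, with adjusted p values from 1.82e-08 to 0.0156. In the authors' deposited table for liver, Cxcr7 had a log2 fold change of -0.67 with a standard error of 0.169 and an adjusted p of 0.0148, the only member below 0.05 there.

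Cxcl1 measured 206, 356, 299 and 256 CPM in liver GOF B, E, F and G, and 180, 274, 199 and 197 CPM in liver control. The groups overlapped, and each GOF library exceeded the control of its letter, by 1.14 to 1.5 times. Its paired log2 fold change was 0.39 ± 0.091 (adjusted p = 0.0477), against 0.41 ± 0.24 without pairing (adjusted p = 0.854). Over the alternatives of the paired fit the adjusted p ran from 0.00241 to 0.21, and the call ended when pair E, F or G was left out and with DESeq2-type size factors.

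Cxcl2 measured 29.6, 91.0, 54.7 and 72.6 CPM in liver GOF B, E, F and G, and 25.9, 44.5, 37.2 and 43.7 CPM in liver control. Libraries E, F and G of GOF lay above all 4 controls, while B of GOF lay within their range. The paired log2 fold change of 0.64 ± 0.144 (adjusted p = 0.0409; 0.74 ± 0.345 and 0.781 without pairing) lost its call when pair E, F or G was left out, with adjusted p values from 0.000773 to 0.222 over the 7 alternatives of that fit. Of the other members of this class, Cxcl5 ranged over 0.169 to 6.23 CPM in liver GOF and 0 to 4.55 CPM in liver control. Cxcl3 ranged over 0.309 to 0.934 CPM in liver GOF and 0 to 0.673 CPM in liver control. Cxcl15, which is made by lung epithelium, had 0 reads.

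**Figure D2:**
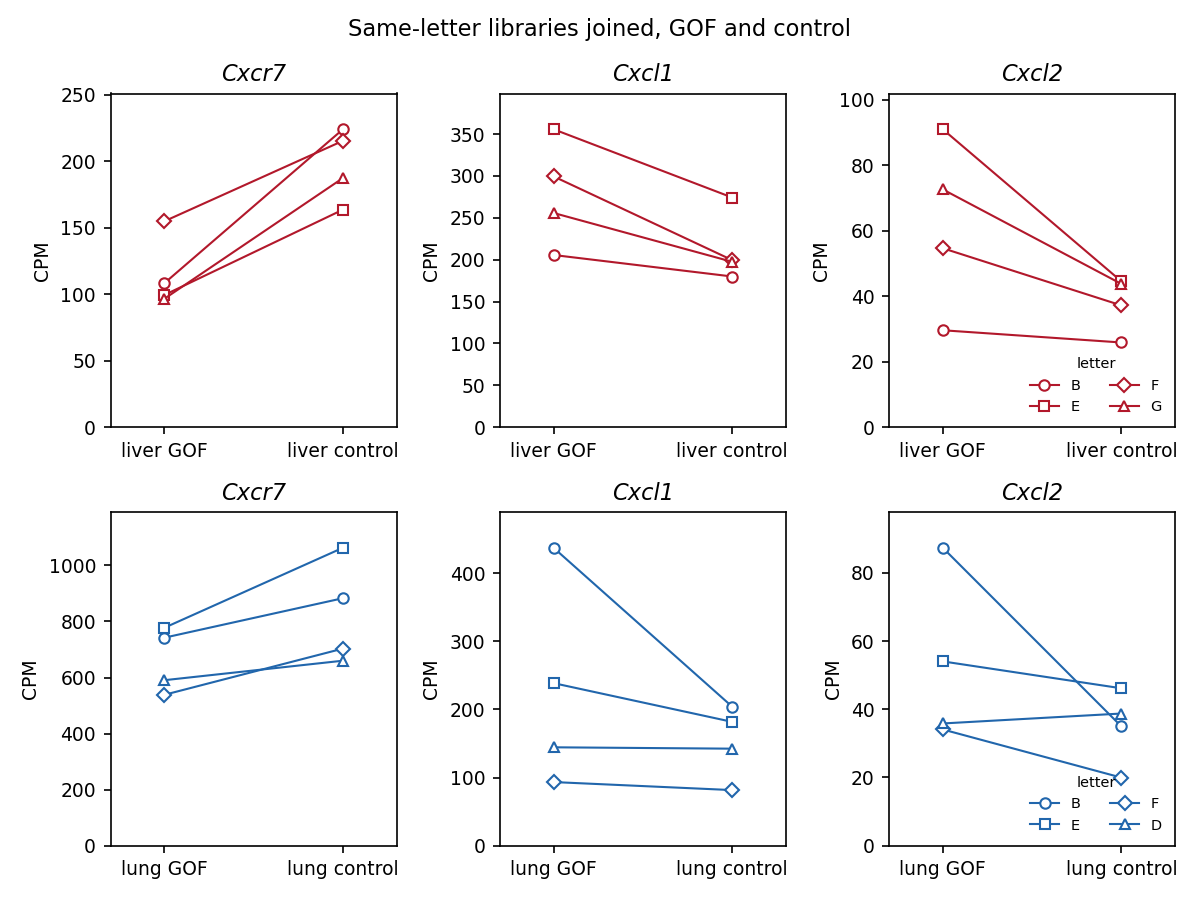
CPM of Cxcr7, Cxcl1 and Cxcl2 in GOF (left) and control (right) libraries of liver (top row) and lung (bottom row), with a line joining libraries of the same letter and axes starting at 0. Cxcr7 lines rise toward control in all 8 pairs, Cxcl1 lines fall toward control in all 8, and Cxcl2 lines fall in all 4 liver pairs and in 3 of 4 lung pairs.

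The interferon-inducible ligands were abundant in both liver groups and did not pass the test. Cxcl10 measured 505, 2568, 2837 and 2357 CPM in liver GOF B, E, F and G, and 484, 2497, 2364 and 1663 CPM in liver control. Cxcl9 measured 68.3, 571, 458 and 570 CPM in liver GOF and 67.6, 504, 395 and 374 CPM in liver control. Both B libraries lay far below the other 6 for Cxcl9 and Cxcl10. Cxcl11 had 5.50 CPM in GOF B and 31.6 to 55.2 CPM in GOF E, F and G. It had 13.2 CPM in control B and 22.5 to 49.1 CPM in control E, F and G. Ccl2 was lowest in both B libraries as well. The B libraries also had the highest sum of 12 hepatocyte markers within each genotype. It was 1977 CPM in GOF B (685 to 1165 CPM in GOF E, F and G) and 4228 CPM in control B (841 to 1979 CPM in control E, F and G). The part of this in the ligand levels was not tested. Within letters the CPM of GOF slightly exceeded that of control in each pair for Cxcl9 and Cxcl10, in B by only 1.01 and 1.04 times. The paired log2 fold changes were 0.27 ± 0.104 (adjusted p = 0.233) and 0.23 ± 0.0925 (adjusted p = 0.259).

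The homeostatic and membrane-bound ligands of liver did not pass the test either. Cxcl16, a membrane-tethered ligand of Cxcr6 that holds natural killer T cells in liver sinusoids, measured 135, 178, 157 and 140 CPM in liver GOF and 207, 182, 158 and 150 CPM in liver control, a paired log2 fold change of -0.18 ± 0.114 (adjusted p = 0.527). Cxcl12 measured 37.5, 13.7, 30.1 and 37.3 CPM in liver GOF and 32.9, 16.4, 32.0 and 162 CPM in liver control. The control G library stood apart for Cxcl12, and the paired log2 fold change of -0.54 ± 0.304 (adjusted p = 0.447) moved to -0.04 without the G pair. Cx3cl1, the membrane-bound ligand fractalkine, ranged over 13.3 to 23.7 CPM in liver GOF and 10.3 to 22.3 CPM in liver control. Ccl21a, a ligand of lymphatic endothelium and lymph nodes whose near-identical copies Ccl21b and Ccl21c could share its reads, ranged over 1.32 to 3.99 CPM in liver GOF and 1.43 to 9.09 CPM in liver control.

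Among the inflammatory CC ligands, 8 of 16 were tested in liver and 0 passed with or without pairing in edgeR or DESeq2. In edgeR 0 of them had an unadjusted p under 0.05, where 1010 of all 15555 genes did without pairing and 2386 with it. Ccl2 led these ligands with 47.3, 163, 89.8 and 79.7 CPM in liver GOF and 29.2, 137, 114 and 96.4 CPM in liver control. Ccl7, its neighbour on chromosome 11 and a further monocyte attractant, ranged over 2.97 to 7.36 CPM in liver GOF and 3.37 to 7.60 CPM in liver control. Ccl5, which attracts T cells, ranged over 0.395 to 1.38 CPM in liver GOF and 0 to 1.33 CPM in liver control. The 18 signalling receptors other than Cxcr4 summed to 8.84 to 13.2 CPM in liver GOF and 4.10 to 16.9 CPM in liver control. Cxcr4 measured 3.48 to 9.45 CPM in liver GOF and 1.98 to 9.38 CPM in liver control, so that receptors of leukocytes were sparse in both liver groups.

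The atypical receptors under other symbols differed in their pattern. Ccrl1 (Ackr4), which scavenges Ccl19, Ccl21 and Ccl25, measured 8.23, 24.4, 12.8 and 17.4 CPM in liver GOF B, E, F and G, and 15, 40.7, 21.7 and 25.2 CPM in liver control. It was lower in GOF in 4 of 4 pairs, with a paired log2 fold change of -0.71 ± 0.155 (adjusted p = 0.0366). The call was absent without pairing (adjusted p = 0.854) and ended when any 1 pair was left out. Darc (Ackr1), which carries chemokines across venules, measured 412, 46.7, 364 and 40.3 CPM in liver GOF and 132, 46.4, 157 and 141 CPM in liver control, a wide spread that did not pass the test. Ccbp2 (Ackr2), a scavenger of inflammatory CC ligands, ranged over 43.6 to 72.3 CPM in liver GOF and 50.3 to 69.5 CPM in liver control.

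In lung, no member passed the test in edgeR. Without pairing 0 of 39 members and 0 genes of 15641 (0%) were called, with 2 members and 341 genes at an unadjusted p under 0.05. With pairing 0 members and 0.0192% of all genes (0.00639% higher and 0.0128% lower) were called. An unadjusted p under 0.05 was then reached by 11 of the 39 members and by 954 of the 15641 genes. DESeq2 called 0 members without pairing and 2 with it, Cxcr7 and Ccr2, and the paired edgeR fit without a filter on low counts called 1, Ccr7. Over all genes paired DESeq2 called 45 as higher and 72 as lower of 15641. The unfiltered paired edgeR fit called 41 as higher and 43 as lower of 20587.

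Cxcr7 measured 742, 777, 538 and 590 CPM in lung GOF B, E, F and D, and 883, 1063, 703 and 660 CPM in lung control. The groups overlapped, and each GOF library lay below the control of its letter, at 0.731 to 0.894 times its level. The paired log2 fold change was -0.35 ± 0.0971 (adjusted p = 0.467). The lung minus liver difference of the GOF effect on Cxcr7 was 0.44 ± 0.148 on the log2 scale in the paired fit (adjusted p = 0.262), so the smaller effect in lung was not separated from that in liver.

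Several ligands of lung GOF B stood above the other libraries. Cxcl1 measured 438, 239, 93.4 and 144 CPM in lung GOF B, E, F and D, and 204, 182, 81.6 and 142 CPM in lung control, with a paired log2 fold change of 0.39 ± 0.159 (adjusted p = 0.807). Cxcl2 measured 87.3, 54.0, 34.1 and 35.8 CPM in lung GOF and 34.9, 46.1, 19.9 and 38.7 CPM in lung control (0.51 ± 0.212, adjusted p = 0.816). The B library of GOF was the highest of 8 for both, as it was for Cxcl10, Ccl2 and Cxcr4.

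Cxcl10 measured 147, 63.9, 38.1 and 36.4 CPM in lung GOF B, E, F and D, and 46.6, 72.4, 44.3 and 45.6 CPM in lung control. Ccl2 measured 103, 45.9, 23.8 and 22.2 CPM in lung GOF and 28.0, 28.0, 23.6 and 24.6 CPM in lung control (0.57 ± 0.279, adjusted p = 0.846), with the 4 control libraries spanning 23.6 to 28.0 CPM. Cxcr4, which endothelial tip cells and most leukocytes carry, measured 114, 47.3, 35.3 and 15.9 CPM in lung GOF and 19.3, 39.4, 18.9 and 23.4 CPM in lung control (0.73 ± 0.378, adjusted p = 0.849). Without the B pair the paired log2 fold changes became 0.15 for Cxcl1, 0.15 for Ccl2 and 0.16 for Cxcr4. GOF B also had the highest fibroblast marker sum of the lung libraries (1742 CPM, against 1011 to 1295 CPM in the other GOF and 604 to 1053 CPM in the control libraries), and a monocyte and macrophage marker sum of 2067 CPM; their part was not tested.

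The homeostatic ligands of lung overlapped between genotypes and none passed the test, with pairs of 1 sign for some of them. Cx3cl1 measured 212, 272, 398 and 359 CPM in lung GOF and 245, 301, 328 and 300 CPM in lung control. Cxcl12 measured 126, 312, 303 and 358 CPM in lung GOF and 128, 403, 337 and 370 CPM in lung control, with both B libraries low. Cxcl12 was lower in GOF in 4 of 4 pairs (paired log2 fold change -0.19 ± 0.108, adjusted p = 0.869). Cxcl16 ranged over 90.7 to 138 CPM in lung GOF and 105 to 147 CPM in lung control, and Cxcl14, a ligand of epithelia and fibroblasts, over 23.2 to 55.0 CPM in lung GOF and 11.7 to 42.9 CPM in lung control. Cxcl14 was higher in GOF in 4 of 4 pairs (0.56 ± 0.214, unadjusted p = 0.0239, adjusted p = 0.775 in the paired edgeR fit). Ccl21a measured 1.26, 1.81, 0 and 5.56 CPM in lung GOF B, E, F and D, and 4.48, 7.24, 3.78 and 7.20 CPM in lung control. It was lower in GOF in 4 of 4 pairs (-2.29 ± 0.916, unadjusted p = 0.0278, adjusted p = 0.798 in the paired edgeR fit).

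**Figure D3:**
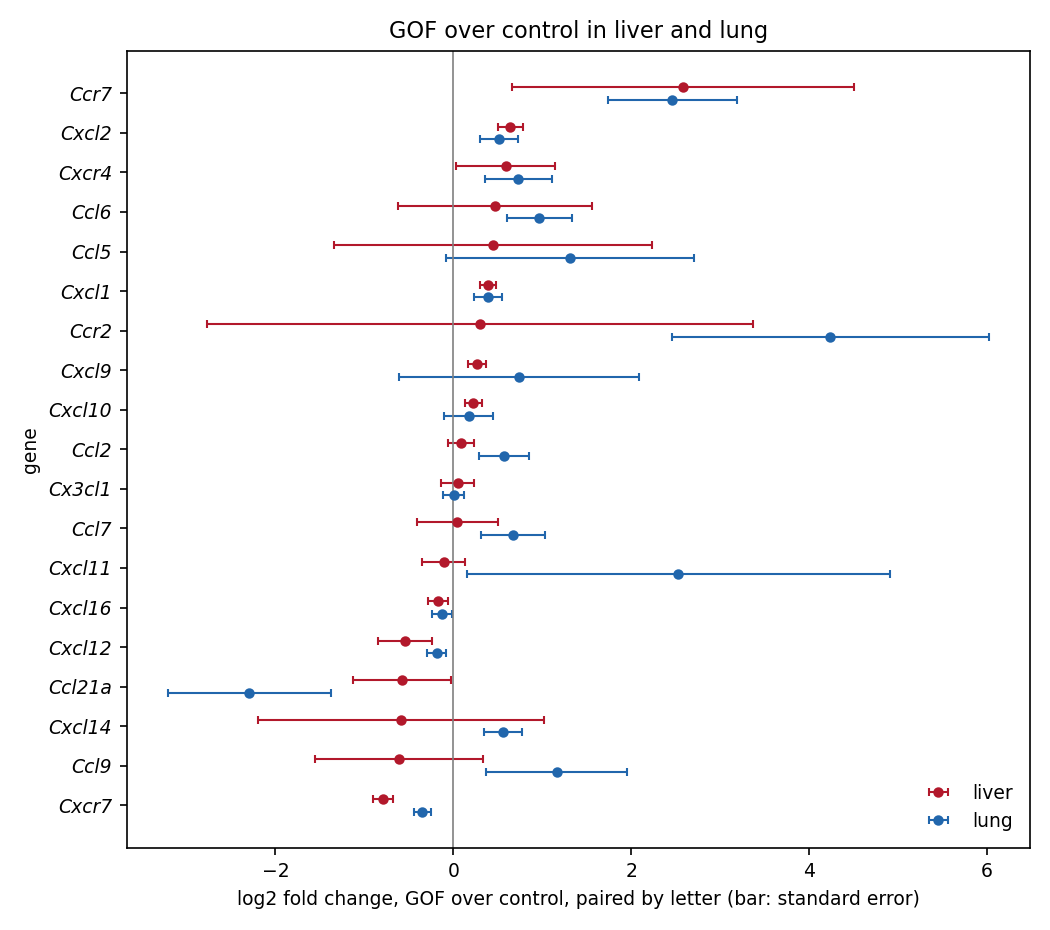
Paired log2 fold changes of GOF over control with standard errors for 19 named members tested in both tissues, liver in red and lung in blue. Cxcr7 lies below 0 and Cxcl1 and Cxcl2 above 0 in both tissues with short error bars, while the sparse receptor Ccr2 has standard errors of 1.78 in lung and 3.07 in liver.

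The receptors of leukocytes were sparse. As a sum they were higher in the lung GOF than in the lung control libraries, with a separation that rested on Ccr7. The 18 signalling receptors other than Cxcr4 summed to 23.2, 38.2, 34.1 and 23.1 CPM in lung GOF B, E, F and D, and to 4.71, 15.6, 15.1 and 21.3 CPM in lung control, with no overlap of the groups. The sum itself was not tested. Without Ccr7 the sums of the groups overlap, and in the D libraries GOF then lies below control. No single member of these receptors passed the paired edgeR test. Ccr7, which guides dendritic cells and T cells to lymph nodes, measured 7.10, 12.4, 12.4 and 11.2 CPM in lung GOF and 0.0386, 3.91, 1.60 and 7.44 CPM in lung control (paired log2 fold change 2.46 ± 0.727, adjusted p = 0.53). Ccr2, the monocyte receptor of Ccl2, measured 4.21, 3.85, 3.64 and 1.52 CPM in lung GOF and 0, 0, 0.716 and 1.04 CPM in lung control. Cxcr2, the neutrophil receptor of Cxcl1 and Cxcl2, measured 1.41, 4.87, 4.03 and 2.93 CPM in lung GOF and 0, 0.203, 0.784 and 3.85 CPM in lung control.

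Markers of blood cells did not all follow the same order in these libraries. Ptprc, the pan-leukocyte antigen CD45, which was chosen after its values were seen, measured 32.5, 17.5, 21.3 and 15.2 CPM in lung GOF B, E, F and D, and 1.43, 5.71, 14.5 and 14.7 CPM in lung control. The 10 neutrophil markers, of which 2 had no reads in lung GOF and 0 were without reads in lung control, summed to 40.2 to 113 CPM in lung GOF and 10.1 to 129 CPM in lung control, and were lowest in the B libraries, with GOF above control in 2 of 4 pairs. The 9 monocyte and macrophage markers found, all with reads, summed to 556 to 2067 CPM in lung GOF and 400 to 2091 CPM in lung control, higher in GOF in 3 of 4 pairs and most of it from Lyz2, which alveolar type 2 cells also express. The 6 dendritic cell markers summed to 110 to 174 CPM in lung GOF and 121 to 152 CPM in lung control, higher in GOF in 2 of 4 pairs. Most of that sum came from Zbtb46, at 74.6 to 125 CPM in the lung libraries. Zbtb46 measured 85.8 to 104 CPM in the liver libraries too, so the sum may say little of dendritic cells. The 13 T and NK cell markers, of which 0 were without reads in lung GOF and 3 in lung control, summed to 7.93 to 21.7 CPM in lung GOF and 6.99 to 15.98 CPM in lung control, higher in GOF in 3 of 4 pairs. Of this sum Lck gave 0.866 to 11.2 CPM in lung GOF and 1.13 to 5.48 CPM in lung control. In the liver libraries Lck measured 12.8 to 36.3 CPM. Ccl6 and Ccl9, ligands of myeloid cells, were higher in the same library, with 43.8, 14.3, 16.8 and 21.8 CPM of Ccl6 in lung GOF and 6.29, 8.57, 12.4 and 18.6 CPM in lung control (paired log2 fold change 0.97 ± 0.365, adjusted p = 0.765). Whether leukocytes that passed the CD31 sort gave these reads was not tested.

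Cxcl15, known as lungkine and made by lung epithelium, may come from carried-over epithelial cells, which was not tested directly. It had 0 reads in all 8 liver libraries, and measured 664, 125, 434 and 496 CPM in lung GOF B, E, F and D, and 255, 73.4, 353 and 640 CPM in lung control. The 8 alveolar type 2 markers, which include the surfactant gene Sftpc, summed to 8797, 1766, 6784 and 11873 CPM in lung GOF and 5652, 1270, 5661 and 13043 CPM in lung control. Both were lowest in the E libraries. While Cxcl15 itself varied 9.05-fold over the 8 libraries, it stayed within 4.18% to 7.55% of the alveolar type 2 sum, a 1.81-fold range. Relative to the monocyte and macrophage sum, most of which was Lyz2, it stayed within a 1.78-fold range, from 18.4% to 32.7%. Over the other lists with reads in every lung library the range ran from 2.82-fold (hepatocyte markers) to 242-fold (platelet markers), with 7.13-fold for alveolar type 1 and 11.3-fold for endothelial markers. In GOF, Cxcl15 was higher in 3 of 4 pairs (0.48 ± 0.212, adjusted p = 0.816), and was 4.18% to 7.55% of the alveolar type 2 sum in lung GOF and 4.50% to 6.24% in lung control.

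**Figure D4:**
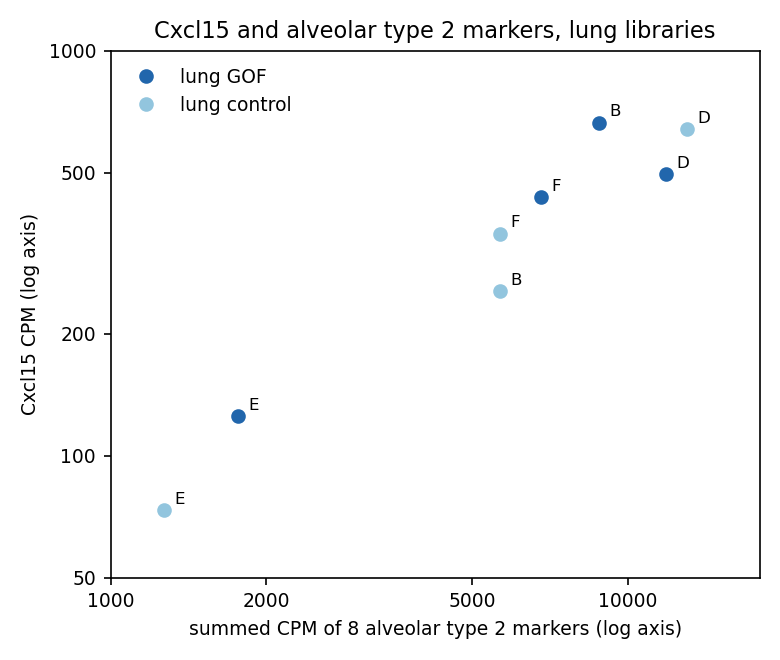
Cxcl15 CPM against the summed CPM of 8 alveolar type 2 markers in the 8 lung libraries, both on log axes, with each library's letter. Both E libraries lie lowest on both axes, at 125 and 73.4 CPM of Cxcl15, and the points climb together across lung GOF and lung control.

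Platelet chemokines stood out in the E libraries of lung. Pf4 and Ppbp, chemokines stored in platelets that the symbol rule does not take in, measured 84.1 and 122 CPM in lung GOF E, and 117 and 187 CPM in lung control E. In the other lung libraries Pf4 lay at 6.58 to 17.9 CPM in GOF and 4.81 to 10.2 CPM in control. The 7 platelet markers, which include both genes, summed to 602 CPM in lung GOF E and 874 CPM in lung control E, against 32.7 to 79.2 CPM in the other lung GOF and 41.6 to 111 CPM in the other lung control libraries.

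The difference between the GOF effects of lung and liver was tested over all 16 libraries. It was called for 0 of 45 members in edgeR without pairing, where 0.00570% of 17536 genes were called, and for 0 with pairing, where 0.490% were called (0.154% higher and 0.336% lower). At an unadjusted p under 0.05 there were 3 members without and 5 with pairing, beside 1005 and 1877 of all 17536 genes, which are similar shares. DESeq2 called 0 members in either form. Of all 17536 genes it called 16 as higher and 26 as lower without pairing, and 118 and 270 with it.

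The tissues themselves differed strongly. In GOF mice, lung differed from liver in 20 of 42 members tested, 17 higher and 3 lower, where 25.4% of all genes were called (14.5% higher and 10.8% lower). In control mice lung differed from liver in 16 of 36 members, 12 higher and 4 lower, where 24.9% of all genes were called (14.0% higher and 11.0% lower). The GOF and control libraries are separate, and 15 members were called in the same direction in both, 75.0% of the GOF calls and 93.8% of the control calls. Of the members tested, 4 in GOF and 6 in control had no liver library at the cutoff of the filter on low counts. They passed only through the lung libraries and so had to differ, and all of these are among the calls. The 6 of control are all among the 15 called in both genotypes. Ccl6, Ccl17, Ccr1, Cxcl14, Cxcl17 and Cxcr2 in GOF and Ccl6 in control were called too. They had some liver libraries below the cutoff and also needed the lung libraries to pass. Cxcl11 in both genotypes and Cxcl9 in control likewise needed the liver libraries.

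Higher in lung were the membrane-bound ligand Cx3cl1, the retention ligand Cxcl12 and both of its receptors. Cx3cl1 averaged 310 ± 84.1 CPM in lung GOF and 16.5 ± 4.90 CPM in liver GOF, and 294 ± 35.0 CPM in lung control and 16.3 ± 5.57 CPM in liver control (SD, n = 4 each). The log2 fold changes were 4.32 ± 0.248 (adjusted p = 1.55e-06) in GOF and 4.30 ± 0.235 (adjusted p = 1.74e-06) in control. Cxcl12 averaged 275 ± 102 CPM in lung GOF and 29.7 ± 11.2 CPM in liver GOF (3.31 ± 0.365), and 309 ± 124 CPM in lung control and 60.9 ± 68.0 CPM in liver control (2.48 ± 0.652; 3.63 without the liver control G library). Cxcr7 was 2.61 ± 0.221 higher in lung GOF than in liver GOF on the log2 scale and 2.19 ± 0.194 higher in lung control than in liver control, with no overlap of the tissues. Cxcr4 averaged 53.2 ± 42.8 CPM in lung GOF and 5.71 ± 2.71 CPM in liver GOF (3.34 ± 0.562), and 25.3 ± 9.62 CPM in lung control and 4.32 ± 3.41 CPM in liver control (2.68 ± 0.492). Markers of other cells were higher in lung as well. Ptprc was 15.2 to 32.5 CPM in lung GOF and 0.934 to 2.73 CPM in liver GOF, and 1.43 to 14.7 CPM in lung control and 0.147 to 6.36 CPM in liver control. The fibroblast and stellate cell sum was 1011 to 1742 CPM in lung GOF and 91.7 to 598 CPM in liver GOF, and overlapped in control, at 604 to 1053 CPM in lung control and 311 to 1235 CPM in liver control. The alveolar type 1 sum was 2039 to 4004 CPM in lung GOF and 10.6 to 28.4 CPM in liver GOF, and 1606 to 3973 CPM in lung control and 17 to 57.6 CPM in liver control. Their part in these levels was not tested. Cx3cl1, Cxcl12, Cxcr7 and Cxcr4 were called in both genotypes under every alternative, the B, E and F block included.

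Lower in lung were the ligands of Cxcr3. Cxcl10 averaged 71.2 ± 51.7 CPM in lung GOF and 2067 ± 1060 CPM in liver GOF, and 52.2 ± 13.5 CPM in lung control and 1752 ± 921 CPM in liver control. The log2 fold changes were -4.80 ± 0.667 (adjusted p = 0.000401) in GOF and -4.98 ± 0.509 (adjusted p = 5.79e-05) in control. Cxcl9 averaged 1.92 ± 2.59 CPM in lung GOF and 417 ± 238 CPM in liver GOF, and 1.29 ± 1.02 CPM in lung control and 335 ± 187 CPM in liver control (-7.69 ± 1.07 and -7.95 ± 0.985). Cxcl11 averaged 0.837 ± 0.592 CPM in lung GOF and 32.8 ± 20.7 CPM in liver GOF, and 0.190 ± 0.231 CPM in lung control and 31.1 ± 16.2 CPM in liver control (-5.25 ± 0.932 and -7.19 ± 0.889). Even the liver B libraries, the lowest of liver, exceeded all lung libraries for these 3 ligands.

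Ccl2 was lower in lung control than in liver control (26.0 ± 2.30 and 94.2 ± 46.4 CPM; -1.76 ± 0.397, adjusted p = 0.00761), a call lost with the block over letters B, E and F (adjusted p = 0.113). In GOF, Ccl2 averaged 48.6 ± 37.6 CPM in lung and 95.0 ± 48.9 CPM in liver and was not called. Cxcl1 and Cxcl16 were not called in either genotype. All lung control libraries of Cxcl16 lay below all liver control libraries (105 to 147 CPM in lung control and 150 to 207 CPM in liver control). The log2 fold change of Cxcl16 was -0.35 ± 0.191 in GOF (adjusted p = 0.225) and -0.40 ± 0.164 in control (adjusted p = 0.106, from 0.0506 to 0.225 over the alternatives).

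**Figure D5:**
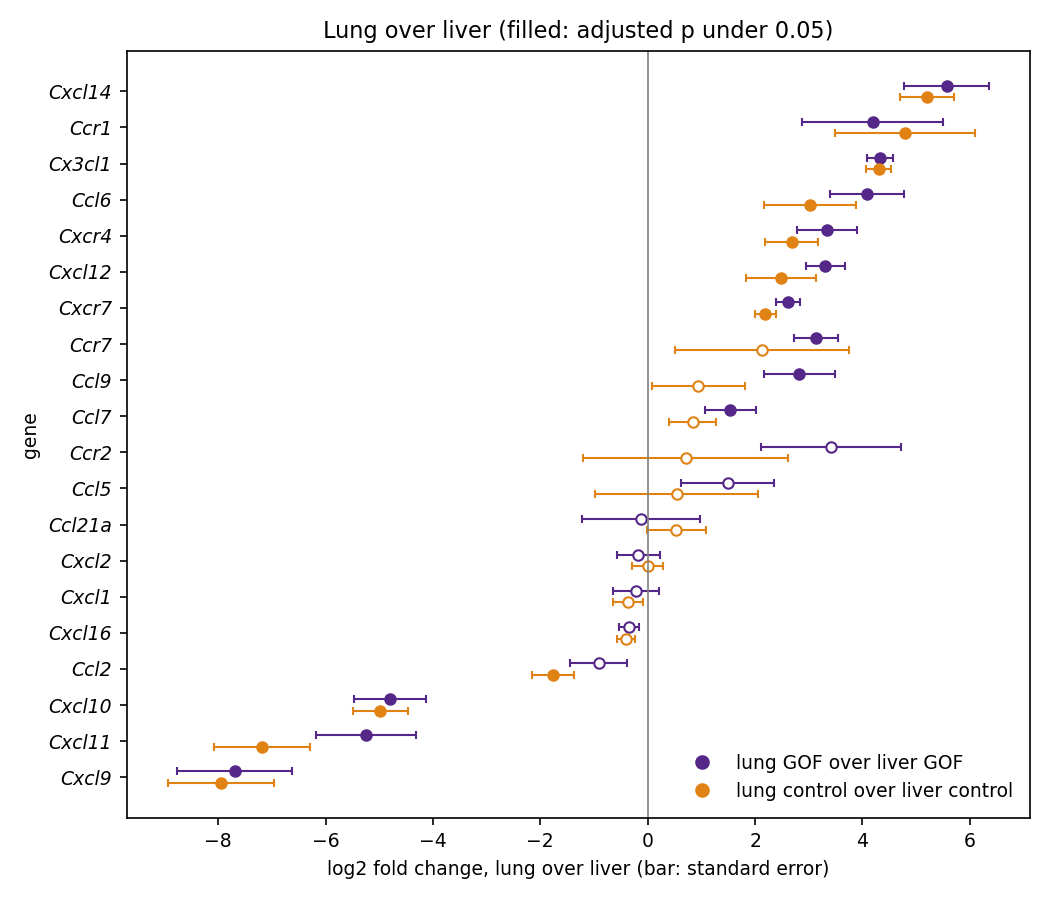
Log2 fold changes of lung over liver with standard errors for 20 named members with reads in all groups, GOF in purple above control in orange, filled where the adjusted p is under 0.05. Cxcl9, Cxcl10 and Cxcl11 lie at -4.80 or below, and Cx3cl1, Cxcl12, Cxcl14, Cxcr4 and Cxcr7 at 2.19 or above, in both genotypes.

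Ligands known from epithelia were also higher in lung. Cxcl15 was at least 17509-fold higher in lung GOF than in liver GOF and at least 13026-fold higher in lung control than in liver control. The floor was 3 reads over the liver group, in which 0 reads allow up to 0.0254 CPM in GOF and 0.0248 CPM in control. Cxcl17, a ligand of mucosal epithelia, averaged 4.94 ± 1.60 CPM in lung GOF and 0.277 ± 0.322 CPM in liver GOF, and in control was at least 168-fold higher in lung, where it averaged 4.15 ± 1.47 CPM. Cxcl14 averaged 38.7 ± 13.7 CPM in lung GOF and 0.83 ± 0.791 CPM in liver GOF, and 27.2 ± 13.7 CPM in lung control and 0.822 ± 0.365 CPM in liver control (5.57 ± 0.785 and 5.2 ± 0.505). The alveolar type 2 sum was 1766 to 11873 CPM in lung GOF and 1.92 to 6.07 CPM in liver GOF, and 1270 to 13043 CPM in lung control and 2.83 to 7.0 CPM in liver control; its part in Cxcl14 and Cxcl17 was not tested.

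The eosinophil attractant Ccl11 was at least 280-fold higher in lung GOF than in liver GOF, and averaged 9.32 ± 4.08 CPM in lung control with reads in 1 liver control library. Ccl17 and Ccl22, ligands of Ccr4 that dendritic cells make and that flank Cx3cl1 on chromosome 8, averaged 3.15 ± 2.96 and 4.16 ± 2.70 CPM in lung GOF and 2.75 ± 3.12 and 3.96 ± 3.82 CPM in lung control. Both were at or below 0.395 CPM in every liver library. Ccl6 averaged 24.2 ± 13.5 CPM in lung GOF and 1.46 ± 1.18 CPM in liver GOF (4.08 ± 0.697), and 11.5 ± 5.37 CPM in lung control and 1.54 ± 1.59 CPM in liver control (3.02 ± 0.852). Ccr1, a receptor of myeloid cells, was also higher in lung, at 1.46 to 9.997 CPM in lung GOF against 0 to 0.777 CPM in liver GOF and at 1.0 to 5.60 CPM in lung control against 0 to 0.323 CPM in liver control. Ccl7, Ccl9 and Ccr7 were called in GOF and not in control, and Ccl8 and Cxcr2 were called in GOF and not tested in control, where they did not pass the filter on low counts. The difference between genotypes was not called for any of them in the test of the difference itself.

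The calls of the sparse members depended on single libraries. In control, Ccl6 lost its call without liver control E or lung control F or D, and Ccr1 without liver control F or lung control D. In GOF, Cxcl17 lost its call without lung GOF E, and Ccl17 without any 1 of 5 libraries (liver GOF E, F or G, lung GOF D or E). Ccl7 and Ccr1 lost theirs without liver GOF B, F or G or lung GOF B or E, and also without lung GOF D for Ccl7 and lung GOF F for Ccr1. Cxcr2 lost its call without liver GOF B, F or G or any 1 lung GOF library. Cxcr2 also lost its call with DESeq2-type size factors. The block over letters B, E and F, which uses fewer libraries, left 11 of 42 members called in GOF (9 higher and 2 lower, where 12.6% of all genes were called, 7.88% higher and 4.70% lower). It left 12 of 36 called in control (9 higher and 3 lower, where 13.2% were called, 7.86% higher and 5.32% lower). The block ended the calls of Ccl6, Ccl7, Ccl8, Ccl9, Ccl17, Ccl22, Cxcl11, Cxcl17 and Cxcr2 in GOF and of Ccl2, Ccl17, Ccl22 and Ccr1 in control. The monocyte and macrophage sum was 556 to 2067 CPM in lung GOF and 51.4 to 72.5 CPM in liver GOF, and 400 to 2091 CPM in lung control and 32.3 to 109 CPM in liver control. The neutrophil sum was 40.2 to 113 CPM in lung GOF and 1.66 to 13.1 CPM in liver GOF, and 10.1 to 129 CPM in lung control and 1.35 to 6.71 CPM in liver control. Their part in these tissue differences was not tested.

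Genes around the chemokine system were read from lists of the pathway outside the members, in the paired fits. Of 20 genes of the NF-kB response, which drives Cxcl1 and Cxcl2 in many cells, 2 rose in liver GOF and 0 fell (1.54% of all genes rose and 1.04% fell in that fit), the feedback inhibitors Tnfaip3 (log2 fold change 0.51 ± 0.0878, adjusted p = 0.0106) and Tnip1 (0.40 ± 0.0899, adjusted p = 0.0403). The log2 fold change was positive for 19 of the 20 in liver, with a median of 0.22 beside 0.0076 over all genes, 51.1% of which were positive, and for 6 of the 20 in lung, with a median of -0.04 beside 6.9e-05. Of 20 interferon-response genes edgeR called 0 in either tissue. At an unadjusted p under 0.05 there were 7 in liver and 3 in lung, beside 8 and 5 of the NF-kB genes. Of all genes, 2386 of 15555 in liver and 954 of 15641 in lung had such a p. The log2 fold change was positive for 14 of the 20 interferon-response genes in each tissue, with medians of 0.20 in liver and 0.28 in lung. The liver median was close to that of the NF-kB genes. Paired DESeq2 called 2 in liver as higher, Gbp3 and Iigp1, and 0 in lung. Over all 15555 genes that liver fit called 537 as higher and 419 as lower. Of 15 genes of heparan sulfate synthesis, the glycan that holds chemokines on the vessel wall, 2 rose in liver GOF (1.54% of all genes rose), the glycosyltransferase Extl3 (0.55 ± 0.128, adjusted p = 0.049) and the sulfotransferase Ndst1 (0.45 ± 0.0855, adjusted p = 0.0185).

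Of 28 receptor-signalling genes, 27 were tested in liver and 1 rose (1.54% of all genes rose), a share near the background. This was Rgs16 (1.18 ± 0.258, adjusted p = 0.0378), which shortens G-protein signals of chemokine receptors. In edgeR no gene of these lists was called in lung, in the test of the difference between the GOF effects of lung and liver, or in liver without pairing. Lung control against liver control without pairing called 0 of 20 interferon-response genes as higher and 12 as lower. For NF-kB genes the counts were 4 and 0, for heparan sulfate genes 5 and 2, and for signalling genes 10 and 2. Of all genes 14.0% were higher and 11.0% lower in that fit. In GOF 7 interferon-response genes were lower in lung. The block over B, E and F left 9 lower in control and 0 in GOF. Paired DESeq2 called 4 NF-kB genes as higher in liver GOF, with Nfkb2 and Nfkbia beside the others, and Plcb3 of the signalling genes. Of all 15555 genes it called 537 as higher and 419 as lower there. It called 4 NF-kB genes as having a lower GOF effect in lung than in liver (Tnfaip3, Nfkbia, Nfkb2 and Birc3), with 118 higher and 270 lower of all 17536 genes. It also called 1 gene of the lists in lung, the heparan sulfate sulfatase Sulf1, as lower in GOF, with 45 higher and 72 lower of all 15641 genes. Leaving out 1 pair ended each paired edgeR call of liver at least once, for Tnfaip3 without E, for Ndst1 without E or F, for Rgs16 without B or F, for Extl3 without B, E or G, and for Tnip1 and Ccrl1 without any 1 pair.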

How the data were processed

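Per the file headers, the authors deposited unnormalised whole-number read counts per gene entry for all libraries. HTSeq 0.6.1, Bowtie2 2.2.1, TopHat2 2.0.11, SAMtools 0.1.19, DESeq2 and the build mm9 are listed in the submitters' processing notes. Neither annotation nor strand setting is given there. Reads of overlapping or near-identical genes (Ccl21a to Ccl21c, Ccl3 and Ccl4) may therefore be shared. The authors also deposited log2 fold changes and adjusted p-values, which are cited only where named. The 16 deposited CPM columns were not used. Per the labels, RNA input was 2 ng and reads were 100 base pairs.

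CPM values scale each count to the library's total count. Levels per kb divide by GENCODE M21 exon lengths, found for 56 members. RefSeq held 61 of the symbols, and its promoter windows are on GRCm38.p6, with no coordinates converted from mm9. The test was edgeR 4.0.16 in R 4.3.3, quasi-likelihood, without a block. TMM factors were used. Counts of letter pairs compare CPM without these factors, so a pair with a ratio near 1 may change direction with them. Such ratios were 1.01 for Cxcl9 in liver B and 1.01 for Cxcl1 in lung D. Genes were kept by filterByExpr at 10 reads, 15 in total. P-values were adjusted by Benjamini-Hochberg over all genes, with calls at 0.05 and a prior count of 0.125 for fold changes. The statistics were tested on simulated data.

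The paired fit adds the replicate letter as a block. Same-letter libraries of a tissue deviated together from their group means. The correlations were 0.29 for B, 0.238 for E, 0.198 for F and 0.171 for G in liver. In lung they were 0.119 for B, 0.188 for E, 0.18 for F and 0.11 for D. All exceed 0.1, so the letters were taken as pairs within a tissue, though the labels do not say what a letter means. Between tissues they ran from -0.0182 to 0.0651, so a block over B, E and F there is an alternative only. Other alternatives were DESeq2-type size factors, DESeq2 1.42.0, no filter, and leaving out a library or pair. Every pair of libraries within a group differed by more than counting noise. The labels call the 4 per group biological samples.

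The members, lists, motifs and tests were chosen with earlier results of these data known. Named members were those called with or without the block (at most 30 per comparison), the 10 highest by mean CPM in each tissue, and a fixed list of 19. Ptprc was added after its values were seen. Bounds against 0 reads use 3 reads over the group and cover counting error only.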

Additional observations from a re-analysis of the deposited data

Results flagged for a closer look

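Within groups of 4 libraries, 10 values among the named members stood far from the other 3. The 28 named members form 112 such groups, groups under 20 reads were not assessed, and chance flags about 1 in 20 groups. In liver control G, Cxcl12 measured 162 CPM where the other control libraries had 16.4 to 32.9 CPM, Cxcr4 9.38 CPM where they had 1.98 to 3.19 CPM, and Cxcr2 0.877 CPM where they had 0. In liver GOF G, Ccl5 measured 1.38 CPM where the other GOF libraries had 0.395 to 0.439 CPM.

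In lung GOF, Ccl11 measured 15.8 CPM in library E (4.24 to 5.16 CPM in the others), Ccl5 3.56 CPM in library D (1.11 to 1.15 CPM) and Cxcl9 5.78 CPM in library B (0.340 to 1.08 CPM). In lung control, library D had 7.41 CPM of Ccl17 (0.886 to 1.53 CPM in the others) and 9.65 CPM of Ccl22 (1.62 to 2.63 CPM), and library E had 72.4 CPM of Cxcl10 (44.3 to 46.6 CPM). No cause of these values was tested.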

How the results depend on the processing

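Of 548 recomputed log2 fold changes without the block, 508 kept their direction and side of the threshold, 32 lost a call, 5 gained one and 3 reversed. With the block, 107 of 116 did so, 7 lost a call and 2 gained one. The reversals are all in unpaired liver fits that left out 1 library: Cxcl9 ran from -0.019 without control B to 0.69 without GOF B, Cxcl10 from -0.071 to 0.58 without the same libraries, and Cxcl12 from -1.34 without control E to 0.13 without control G. The cause was not tested. In liver, 0 members were called without pairing, 1 with DESeq2 and 3 with the replicate block, and leaving out a pair gave 1 to 3. Across all genes the block moved the liver calls to 401, from 5 without it. In lung with the block, edgeR called 0 members, DESeq2 2 and the fit without a filter 1. Between tissues in GOF mice 20 members were called, 11 with the block over B, E and F, and 16 to 19 without 1 library. Alternatives that combine the block with another setting were chosen after seeing the data. Members with few reads are limited by depth.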
